A study of Mus musculus with 2 samples.

Results

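Glutamate, GABA and glycine receptor genes were examined for binding of Suz12 in mouse embryonic stem cells undergoing differentiation. The 43 genes were chosen by receptor class, and all 43 matched a protein-coding gene by symbol in the RefSeq table of build GRCm38, which lists 21631 such genes on the 20 chromosomes with peaks. Suz12 peaks that overlapped a gene or lay within 2.5 kb of it were assigned to that gene. The peaks of the 43 genes numbered 35 of the 3373 in the deposited list.

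The peaks come from chromatin immunoprecipitation followed by sequencing of 1 library of wild-type E14 cells, a mouse embryonic stem cell line. For 72 h these cells received 1 µM all-trans-retinoic acid in serum medium that lacked leukemia inhibitory factor, the cytokine that keeps them undifferentiated. The other library of the series, from Suz12[-/-] cells of the strain labelled Suz12-KO at 0 h, was made with the same anti-Suz12 antibody and was not analysed here. With 1 library and no replicate, no error between replicates and no p-value can be given, and the list holds no reads, so the depth is unknown. A gene without a peak may therefore hold signal under the authors' threshold. A peak's score is the authors' own value, and it is used only to describe and filter peaks within this list. Scores ran from 150.3 to 3233 with a median of 572, and 325 peaks share the value 3100, so scores of 3100 and above give no order.

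Suz12 is a core subunit of Polycomb Repressive Complex 2, which methylates histone H3 on lysine 27 and is found mostly at CpG islands of genes that are silent. Glutamate is the main excitatory transmitter of the brain, while GABA and glycine are the main inhibitory ones. Ionotropic receptors are ion channels opened by the transmitter, and metabotropic receptors act through G proteins. Genes of these receptors are largely used by neurons, and many of them are targets of Polycomb in stem cells.

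Suz12 lay at most of the glutamate receptor genes and at few of the GABA and glycine receptor genes. A peak within 2.5 kb of an outer end was found at 18 of 24 glutamate receptor genes (75%, exact Clopper-Pearson 95% interval 53.3 to 90.2) and at 5 of 19 GABA and glycine receptor genes (26.3%, 9.15 to 51.2). Over all 43 genes the count was 23 (53.5%, 37.7 to 68.8), against 11.7% of all protein-coding genes. These intervals cover counting error only and treat genes as independent. A peak anywhere in the gene or within 2.5 kb was present at 27 of the 43 genes, against 13.1% of protein-coding genes, and 16 had none. The difference between the receptor types is a description of this library and was not tested.

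**Figure D1:**
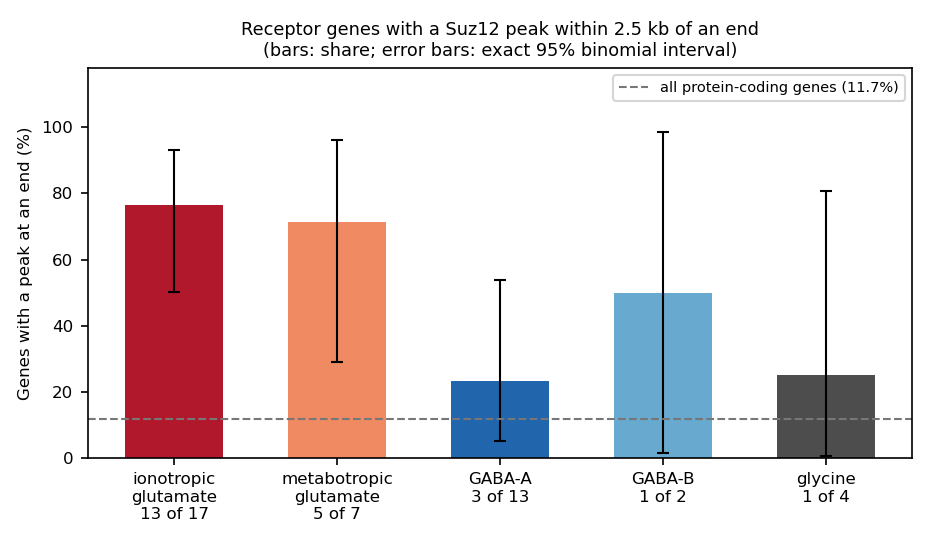
Share of genes in each receptor family with a Suz12 peak within 2.5 kb of an outer end (vertical axis, percent), with exact 95% binomial intervals and a dashed line at 11.7% for all protein-coding genes. Ionotropic (13 of 17) and metabotropic (5 of 7) glutamate receptor genes have the tall bars, GABA-A genes (3 of 13) a short one, and the intervals of GABA-B (1 of 2) and glycine (1 of 4) receptor genes span most of the axis.

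Gene length was given beside these counts because long genes carried more peaks overall. Among all protein-coding genes the share with a peak at an end was 9.9% under 20 kb, 10.6% from 20 to 100 kb, 20.3% from 100 to 300 kb and 36.8% over 300 kb. A peak at an end was found at 3 of 6 receptor genes under 20 kb and at 5 of 12 from 20 to 100 kb. From 100 to 300 kb the count was 6 of 11, and over 300 kb it was 9 of 14. For glutamate receptor genes these counts were 3 of 4, 4 of 4, 4 of 5 and 7 of 11, in order of length. For GABA and glycine receptor genes they were 0 of 2, 1 of 8, 2 of 6 and 2 of 3. The receptor types were thus closer over 300 kb than from 20 to 100 kb.

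The base composition of the gene starts was examined next, since the title of the series concerns CpG islands. RefSeq sequences of 300 bases, from 250 before to 50 after an annotated start on GRCm38.p6, matched 32 of the 43 genes. The entries for Gria1, Gria3, Grik1, Grin2a, Grin2b, Grin3a, Grid1, Grm4, Grm5, Gabrd and Glra1 were missing. A window was called CG-rich when it held at least 50% G and C and a ratio of observed to expected CG dinucleotides of at least 0.6. The following sequences show, for each family that has one, the start with the highest-scoring peak within 2.5 kb.

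Every CG is in capitals, and each run is written 5′ to 3′ on the gene's strand. Grik3 is at chr4:125490446-125490745 on the plus strand, Grm6 at chr11:50850435-50850734 on the plus strand, Gabra5 at chr7:57510010-57510309 on the minus strand and Gabbr2 at chr4:46991665-46991964 on the minus strand.
Grik3: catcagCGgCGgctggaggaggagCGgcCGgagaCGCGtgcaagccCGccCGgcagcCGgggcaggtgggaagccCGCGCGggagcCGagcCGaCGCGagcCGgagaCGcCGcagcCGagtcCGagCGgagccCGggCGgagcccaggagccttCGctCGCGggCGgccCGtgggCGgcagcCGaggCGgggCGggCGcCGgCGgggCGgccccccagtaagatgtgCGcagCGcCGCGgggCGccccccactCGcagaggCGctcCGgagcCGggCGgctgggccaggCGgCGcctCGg
Grm6: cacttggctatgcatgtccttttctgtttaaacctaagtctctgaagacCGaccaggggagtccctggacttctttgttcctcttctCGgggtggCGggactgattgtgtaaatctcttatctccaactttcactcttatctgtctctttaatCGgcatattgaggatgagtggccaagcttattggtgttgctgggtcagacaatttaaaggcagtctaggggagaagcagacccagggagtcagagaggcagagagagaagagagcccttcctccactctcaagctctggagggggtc
Gabra5: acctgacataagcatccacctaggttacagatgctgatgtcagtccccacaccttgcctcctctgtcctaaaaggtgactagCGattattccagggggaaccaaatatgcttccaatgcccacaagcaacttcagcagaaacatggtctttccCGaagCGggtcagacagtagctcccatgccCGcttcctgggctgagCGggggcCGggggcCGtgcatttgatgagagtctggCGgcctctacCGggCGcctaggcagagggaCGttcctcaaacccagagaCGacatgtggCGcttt
Gabbr2: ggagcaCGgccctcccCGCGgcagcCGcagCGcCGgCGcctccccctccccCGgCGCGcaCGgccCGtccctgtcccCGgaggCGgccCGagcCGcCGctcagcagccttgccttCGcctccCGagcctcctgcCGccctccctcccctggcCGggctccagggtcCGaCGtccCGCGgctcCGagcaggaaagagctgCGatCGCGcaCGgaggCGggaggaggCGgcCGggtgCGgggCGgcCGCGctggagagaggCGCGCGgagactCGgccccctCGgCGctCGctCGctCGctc

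These 4 starts differed widely in CG content although each lay under a peak. Grik3 held 50 CG dinucleotides (ratio 1.01) and Gabbr2 held 46 (0.96), while Gabra5 held 13 (0.54) and Grm6 only 4 (0.22). The next 4 sequences come from genes without any peak and show the lowest (Gabra3 and Gabrr2) and the highest (Glrb and Gria4) ratios among those genes, each taken at its outermost annotated start.

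Gabra3 is at chrX:72656870-72657169 on the minus strand, Gabrr2 at chr4:33062862-33063161 on the plus strand, Glrb at chr3:80913611-80913910 on the minus strand and Gria4 at chr9:4796185-4796484 on the minus strand, with CG in capitals as before.
Gabra3: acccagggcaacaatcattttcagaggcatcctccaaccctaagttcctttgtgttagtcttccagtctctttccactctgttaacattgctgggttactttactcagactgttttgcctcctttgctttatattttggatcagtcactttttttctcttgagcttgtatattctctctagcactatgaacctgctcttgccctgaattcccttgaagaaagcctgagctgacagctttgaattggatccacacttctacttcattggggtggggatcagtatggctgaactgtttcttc
Gabrr2: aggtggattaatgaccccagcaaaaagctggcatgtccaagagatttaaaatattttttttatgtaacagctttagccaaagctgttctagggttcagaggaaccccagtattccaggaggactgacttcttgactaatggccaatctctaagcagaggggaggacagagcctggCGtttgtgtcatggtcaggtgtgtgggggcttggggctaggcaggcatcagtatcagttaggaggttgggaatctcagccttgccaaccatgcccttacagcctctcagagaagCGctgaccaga
Glrb: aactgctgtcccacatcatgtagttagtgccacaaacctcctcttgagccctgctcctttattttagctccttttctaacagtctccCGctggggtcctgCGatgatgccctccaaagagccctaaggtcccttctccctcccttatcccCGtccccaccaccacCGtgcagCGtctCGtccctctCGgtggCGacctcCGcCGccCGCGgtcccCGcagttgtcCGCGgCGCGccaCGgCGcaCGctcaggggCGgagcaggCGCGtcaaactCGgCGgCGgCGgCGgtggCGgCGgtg
Gria4: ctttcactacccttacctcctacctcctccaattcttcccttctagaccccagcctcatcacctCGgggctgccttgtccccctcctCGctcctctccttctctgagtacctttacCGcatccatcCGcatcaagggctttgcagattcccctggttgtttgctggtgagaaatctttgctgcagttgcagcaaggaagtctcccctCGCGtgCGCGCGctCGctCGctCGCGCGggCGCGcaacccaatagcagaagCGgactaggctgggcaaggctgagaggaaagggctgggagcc

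Gabra3 held 0 CG dinucleotides and Gabrr2 held 2, whereas Glrb held 30 (ratio 0.96) and Gria4 held 17 (0.66), both CG-rich and both without a peak. Over the 32 genes, each taken at its outermost start, 14 starts were CG-rich, and 8 of these 14 had a peak within 2.5 kb. Of the 18 starts that were not CG-rich, 6 had one. Among 17274 protein-coding genes with an entry, a peak lay near 13.5% of CG-rich and 6.27% of other outermost starts. The 13 genes without any peak had a median ratio of 0.48 and the 19 with a peak one of 0.72, with ranges of 0.00 to 0.96 and 0.17 to 1.20 that overlapped over most of their length.

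The receptor types also differed in the composition of their starts. An entry was given for 15 of the 24 glutamate receptor genes and for 17 of the 19 GABA and glycine receptor genes. The comparison therefore leaves out more of the glutamate receptor genes. CG-rich starts were found at 10 of 15 glutamate receptor genes and at 4 of 17 GABA and glycine receptor genes. Together these are 14 of 32 (43.8%), against 46.3% of all protein-coding genes with an entry. Of the CG-rich starts, 6 of 10 and 2 of 4 had a peak within 2.5 kb. Of the starts that were not CG-rich, 4 of 5 at glutamate receptor genes had one (Grin3b, Grm3, Grm6 and Grm7, but not Grik5), against 2 of 13 at GABA and glycine receptor genes (Gabra5 and Gabrg3). The motif TATAAA was searched on both strands as letters only. It was present at 4 of the 32 starts (Grin3b, Gabra3, Gabrb2 and Glra2), against 13.4% of all protein-coding genes with an entry, and of these 4 only Grin3b had a peak.

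**Figure D2:**
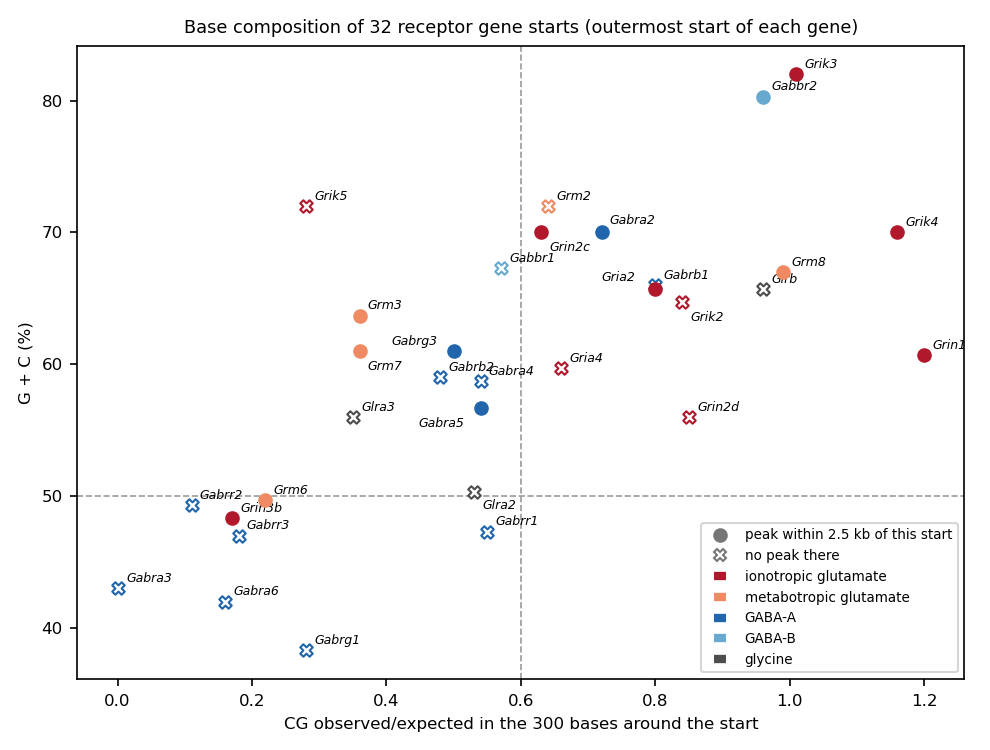
Observed to expected CG (horizontal) and percent of G and C (vertical) in the 300 bases around the outermost annotated start of 32 receptor genes, coloured by family. Filled circles have a Suz12 peak within 2.5 kb of that start and open crosses do not, dashed lines mark 0.6 and 50%, and crosses such as Glrb and Grik2 share the CG-rich upper right with circles such as Grik3 and Gabbr2.

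Suz12 was next described by class, beginning with the AMPA receptors, which carry fast excitatory transmission. Only 1 of the 4 AMPA receptor genes had a peak. It was Gria2, which encodes the subunit that limits calcium entry, with a peak of 1743 bp and score 376. This peak began 912 bp downstream of the annotated start and did not cover it. Gria1, Gria3 and Gria4 had none, and the nearest peaks lay 497, 1749 and 4104 kb away.

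Kainate receptor genes had a peak at 5 of 5 loci, but in different places. Grik3 had the widest peak of the whole group, 7003 bp with score 3100, at chr4:125486629-125493631, which ran from 4067 bp upstream to 2935 bp downstream of the start. Grik1 had a peak of 1376 bp and score 319 close to its high-coordinate end. Grik2 had a peak of score 157, near the lowest score in the list, which lay inside the gene and 4910 bp downstream of the start. Grik4 and Grik5 encode subunits that form channels only with another kainate subunit. Grik4 had 3 peaks, with score 507 over the start, 773 inside the gene 45691 bp downstream, and 164 at the far end. Grik5 had a single peak, of 3668 bp and score 1447, at the far end and 60716 bp from its start.

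All 7 NMDA receptor genes had a peak at an end. NMDA receptors need glutamate, a co-agonist and depolarization to open. Grin1, the obligatory subunit, had a peak of 1657 bp and score 452 over its start, one of score 275 inside the gene, and one of 4680 bp and score 3100 at its far end. The last of these covered all of its neighbour Lrrc26 and lay near an end of Tmem210. Grin2a and Grin2b, the main glutamate-binding partners in the forebrain, had peaks at the high-coordinate end of 4478 bp with score 2872 and of 1414 bp with score 603.

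Grin2c, a subunit of cerebellar granule cells, had 3 peaks that covered 33% of its 18.1 kb. They scored 2329 over the start, 225 inside and 1498 at the far end. Grin2d had 1 peak, of 3207 bp and score 3100, at its far end and 31637 bp from the annotated start. Grin3a, a glycine-binding subunit, had a peak of 2244 bp and score 2436 at its high-coordinate end. Its relative Grin3b, the shortest gene of the group at 6794 bp, had peaks of score 396 over the start and 522 at the far end, which together covered 49.1% of the gene. Grid1, a delta receptor that organizes synapses, had a peak of 5485 bp and score 3200 at chr14:34818109-34823593.

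**Figure D3:**
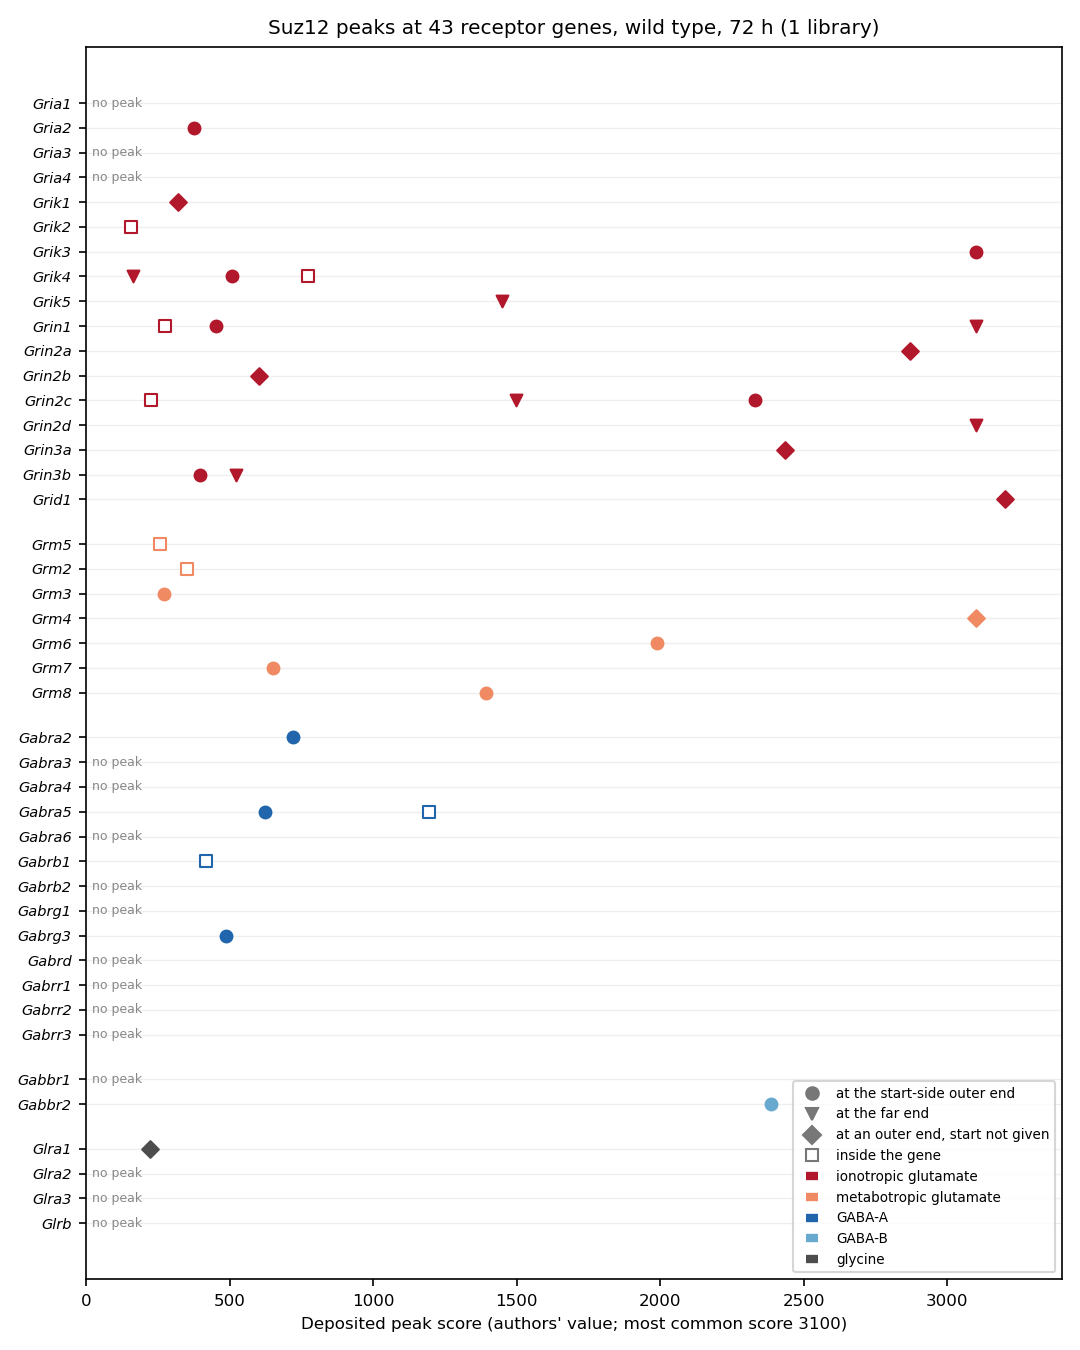
Deposited score (horizontal) of each Suz12 peak at the 43 receptor genes (rows), coloured by family. The marker gives the peak's place, and "no peak" stands at 16 genes. Scores of 3100 or more are seen at Grik3, Grin1, Grin2d, Grid1 and Grm4, all glutamate receptor genes, and the highest score of an inhibitory receptor gene is 2385 at Gabbr2.

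Peaks at the far end were described apart, since a peak counted at an end need not lie at the start. Among the 32 genes with an annotated start, 15 had a peak within 2.5 kb of a start (46.9%, 29.1 to 65.3), against 10.0% of all protein-coding genes with an entry. A far-end peak was present at 6 of the 32, against 3.47%, and among genes longer than 20 kb at 4 of 27, against 1.47%. All 6 are ionotropic glutamate receptor genes (Grik4, Grik5, Grin1, Grin2c, Grin2d and Grin3b). At Grik5 and Grin2d, 2 of the 6, the far end was the only place with a peak. Of the 600 protein-coding genes with an annotated start and a far-end peak, 32.3% had no peak near a start. Among the 116 of these longer than 20 kb the share was 65.5%. The far-end peaks of the 4 NMDA receptor genes lay within 2.5 kb of an end of another protein-coding gene, namely Lrrc26 and Tmem210 at Grin1, Tmem104 at Grin2c, Grwd1 at Grin2d and Tmem259 at Grin3b. The same held for 44.8% of far-end peaks over all protein-coding genes with an annotated start. Which of the neighbouring genes such a peak belongs to cannot be told apart from the list.

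**Figure D4:**
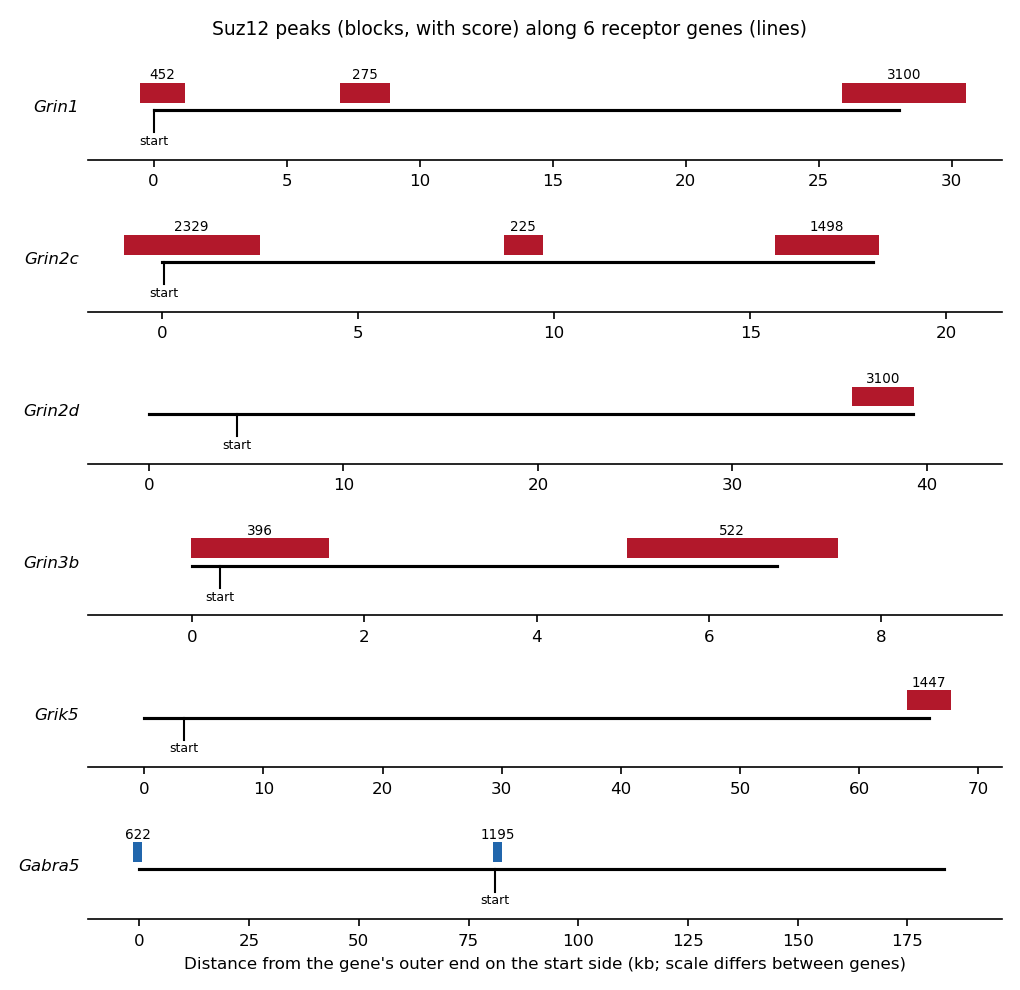
Suz12 peaks (blocks, with their score) along 6 receptor genes, in kb from the outer end on the start side, with ticks at the annotated start and a separate scale for each gene. Grin1, Grin2c and Grin3b carry blocks at both ends, Grin2d and Grik5 at the far end only, and Gabra5 at the outer end and at its inner start.

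Metabotropic glutamate receptor genes all had a peak in or near the gene (7 of 7), and 5 had it at an end. The group III receptors, which lower cyclic AMP and act mainly at presynaptic terminals, had a peak at an end at 4 of 4 genes. Grm4 scored 3100 over 3954 bp, and Grm6, the receptor of retinal ON bipolar cells, scored 1987 over 3144 bp. Grm8 scored 1393 over 3672 bp and Grm7 scored 652 over 2283 bp. The peaks of Grm6, Grm7 and Grm8 covered an annotated start. Group II genes had low scores, with 272 over the start of Grm3 and 351 inside Grm2. Grm5, a group I receptor that acts through phospholipase C, had a peak of score 258 inside the gene, 4151 bp from an outer end. The peak of Grm2 lay 2509 bp from an outer end, just outside the limit of 2.5 kb, while the far-end peak of Grik4 (2356 bp) and the peak of Gria2 (2304 bp) lay just inside it.

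GABA-A receptors are chloride channels built of subunits from several classes. Of their 13 genes, 4 had a peak and 9 had none. Gabra2 had a peak of 1678 bp and score 719 that ran from 835 bp upstream to 842 bp downstream of the start, and Gabrg3 had one of 1301 bp and score 486 over its start. Gabra5, whose subunit sits largely outside synapses in the hippocampus, had 2 peaks. That of score 1195 covered the annotated start, which lies 80957 bp inside the outer end of the gene, and that of score 622 lay at the outer end. Gabrb1 had no peak at an end but one of score 417 inside the gene, 291 bp downstream of an inner annotated start. The inner start of Gabrb1 had a CG ratio of 0.47, against 0.80 at its outermost start, which had no peak.

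Most GABA-A genes lie in clusters, and the clusters differed. In the chromosome 5 cluster, where Gabrg1, Gabra2, Gabra4 and Gabrb1 span 1399 kb, 2 of 4 genes had a peak. Gabra4 and Gabrb1 overlap at their outer starts, and neither start had a peak. On chromosome 7 both Gabrg3 and Gabra5 had peaks, 3 in all over 875 kb. No peak lay in or within 2.5 kb of Gabra6 and Gabrb2 on chromosome 11, or of the rho subunit genes Gabrr1 and Gabrr2 on chromosome 4. Gabrr3, a rho gene on chromosome 16, and Gabrd, which encodes a subunit of extrasynaptic receptors, also had none. The nearest peak was 73.4 kb from Gabrr2, 148 kb from Gabrr1, 255 kb from Gabrd, 1143 kb from Gabrr3 and 1454 kb from Gabra6, the subunit gene of cerebellar granule cells.

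The GABA-B receptor works as a pair of G-protein-coupled subunits, and its 2 genes differed. Gabbr2, whose subunit couples to the G protein, had a peak of 3795 bp and score 2385 at chr4:46989463-46993257, from 1543 bp upstream to 2251 bp downstream of the start. Gabbr1, whose subunit binds GABA, had none, and the nearest peak lay 56.2 kb away. The start of Gabbr1 held 18 CG dinucleotides and a ratio of 0.57, just under the limit for a CG-rich start.

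Glycine receptors, chloride channels of spinal cord and brainstem, had a peak at 1 of 4 genes. Glra1, the main adult alpha subunit, had a peak of 1407 bp with the low score 222 at its high-coordinate end. Glra2, Glra3 and Glrb had none. Glrb, whose subunit anchors the receptor to gephyrin, neighbours Gria2, and the Gria2 peak was the nearest to it at 41.7 kb. The X-linked receptor genes Gria3, Gabra3 and Glra2 had no peak (0 of 3, interval up to 70.8%), and 4.24% of the 966 protein-coding genes on the X chromosome had one at an end.

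**Figure D5:**
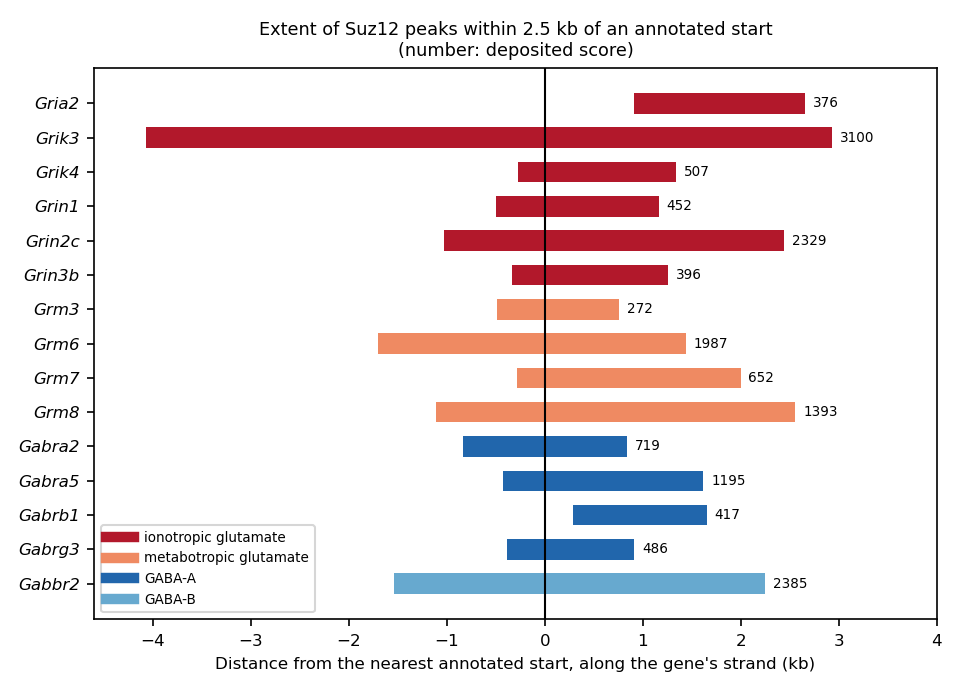
Extent of the 15 Suz12 peaks within 2.5 kb of an annotated start, in kb along the gene's strand (0 is the start nearest to the peak), coloured by family and marked with the score. The peaks of 13 genes cross the start, those of Gria2 and Gabrb1 begin downstream of it, and Grik3 reaches farthest on both sides.

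Peaks inside the genes were few and mostly low in score. An interior peak, away from both outer ends, was present at 8 of 43 receptor genes (18.6%, 8.39 to 33.4), against 2.23% of protein-coding genes. Among genes over 300 kb it was present at 4 of 14 receptor genes, against 12.9% of all protein-coding genes of that length. At 4 of the 8 receptor genes (Grik2, Grm5, Grm2 and Gabrb1) it was the only peak. Among all protein-coding genes, 293 of the 483 with an interior peak had none at an end. The 8 interior peaks scored from 157 at Grik2 to 1195 at Gabra5, and 6 of the 8 scored below the median of the list. The interior peaks of Gabra5 and Gabrb1 were the 2 that lay within 2.5 kb of an annotated start. At the gene ends, the median best score was 1393 over the 23 receptor genes with such a peak, against 661 over all 2540 such genes. Of the 23, 5 reached 3100 (21.7%, against 13.9% of all such genes). By transmitter the median was 1717 for the 18 glutamate receptor genes and 622 for the 5 GABA and glycine receptor genes.

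Other genes of the same signalling systems were taken from 4 lists by function. Auxiliary subunits, which bind the receptors and set their gating and transport, had a peak at an end at 11 of 17 genes (64.7%, 38.3 to 85.8), against the 11.7% of all protein-coding genes that also stands beside the counts of the other lists. The highest scores among them were 1707 at Shisa9, 1521 at Shisa6, 1362 at Kctd8 and 1194 at Neto1. Genes for transmitter uptake and vesicle loading had a peak at an end at 7 of 13, led by Slc32a1, which loads GABA and glycine into vesicles (3100), and by Slc6a5, the neuronal glycine transporter (1833). Slc17a7, which loads glutamate, also scored 1833, and Slc6a11 scored 1008. Of 7 genes for transmitter enzymes, Gad1 and Gad2, which make GABA, had a peak at an end and both scored 3100. Scaffold genes had a peak at an end at 6 of 17 (35.3%, 14.2 to 61.7), where the highest scores were 1783 at Grip2, 726 at Shank3, 519.7 at Shank1 and 322 at Pick1. Shank1 also had an interior peak of score 3100, above its peak at an end. Gphn, which encodes the gephyrin scaffold of glycine and GABA-A receptors, had no peak.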

How the data were processed

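Suz12 binding was read from 1 peak list of the wild-type library. Bowtie, MACS and build GRCm38 (mm10) are named in the submitters' processing notes. Tool versions, parameters, the control and pooling were not given in the sources used here. Per the file's layout, the authors deposited a score for each peak with its start and end. MACS conventionally writes a scaled negative logarithm of the p-value there, but the list does not state it.

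Coordinates were made 1-based and compared with RefSeq genes of GRCm38.p6. A peak was at an end when it overlapped the 2.5 kb on either side of an outer end, and interior when it overlapped the gene but neither window. Starts and strands came from the RefSeq promoter table. Python 3.11.15, pandas 2.3.3 and scipy 1.17.1 were used. The assignment was tested on simulated peaks at 200 genes and recovered all 200. The genes and lists were chosen with earlier results of these data known. All 43 receptor genes are accounted for, and some neighbours and up to 4 top-scoring genes per other list are named. Printed starts are the top-scoring one per family and 4 of genes without a peak. Windows of 0, 1 and 5 kb, stricter scores, peak midpoints and other joining distances were tried.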

Additional observations from a re-analysis of the deposited data

How the results depend on the processing

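Of 56 alternative counts, shares and lengths, 50 lay within a factor of 1.5 of the reported value and 6 lay outside it. The number of receptor genes with a peak at an end was 19 when the peak had to overlap the end, 22 within 1 kb, 25 within 5 kb, 21 with scores at least double the lowest and 16 with scores at or above the median. Stricter scores lower counts by construction. With scores at least double the lowest, 4 genes had an interior peak and 0 glycine receptor genes had one at an end. With scores at or above the median these counts were 2 and 0, the number with a peak anywhere was 17, and the share of all protein-coding genes with a peak at an end was 6.46%. The median CG ratio of genes with a peak at an end exceeded that of the others by 0.14, and the median percent of G and C by 7.33 percentage points. Joining peaks up to 3 kb apart gave 35 domains at the receptor genes. No paired analysis was possible because each group has 1 library and a peak list was used for 1 of them. The unknown depth limits what an absent peak shows.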
